A study of Drosophila melanogaster with 24 samples.

Results

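Autosomal windows that carried peaks of both H3R17me2 and H3K27me3 in fly heads were described from broad peak lists. The autosomes 2L, 2R, 3L and 3R of dm6 were cut into consecutive windows of 5000 bp, and coverage gives how much of a window, in percent, the merged peaks of a list took up. A window was taken as having both marks when at least 50% of it was covered in each of the 8 H3K27me3 lists and its mean coverage over the 8 H3R17me2 lists was at least 50%. By this rule 1689 of 21796 windows were chosen, which is 7.75% of the windows and 8.445 Mb. The measured coverage of both marks selected the members, so their coverage is given below as a description. Tests were run only on differences between conditions and on peak heights, and the rule did not use the heights. The rule treats the lists of a mark alike, but its H3K27me3 part depends on the list with the lowest coverage. H3K27me3 peaks took up 27.8 to 33.3 Mb of the autosomes in lists of 3-day-old flies and 39.4 to 43.1 Mb in those of 40-day-old flies. The choice is therefore not neutral to the contrast of H3K27me3 with age.

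The chromatin came from whole heads of mated male flies, 25 heads per sample, taken 8 h after lights on. At an age of 3 or 40 days, w1118 flies, called control here, were set beside flies homozygous for LKRSDH MB01942, called mutant here. MB01942 is an insertion in LKRSDH, which encodes lysine ketoglutarate reductase/saccharopine dehydrogenase, an enzyme of lysine breakdown, and was backcrossed to w1118. Each of the 4 conditions had 2 replicates per mark, which gives 16 immunoprecipitated libraries beside 8 inputs, and the study asked how H3R17me2 relates to H3K27me3. Whole heads mix neurons, glia, photoreceptors, fat body, muscle and cuticle, so a window with both marks may carry them in different cells, and the 1 mutant allele stands for the loss of the gene.

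H3K27me3 is laid down on histone H3 by Polycomb repressive complex 2 and is read by Polycomb repressive complex 1. In flies it forms broad domains over silent developmental genes such as the Hox complexes, recruited through Polycomb response elements. Asymmetric dimethylation of arginine 17 of histone H3 is made by CARM1, called Art4 in the fly, and is known mainly as a mark of coactivation at nuclear receptor target genes.

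Promoters from 3 of the 10 longest stretches of neighbouring members are shown here as examples of start sites inside stretches with both marks. Each runs from 250 bases before to 50 bases after the start of the gene in the dm6 genome of RefSeq, printed 5′ to 3′ on the strand of the gene. These 6 promoters lie at chr3L:22454123-22454422 (plus strand, CG11449), chr2L:913836-914135 (plus, GluRIIC, a subunit of the glutamate receptor at the neuromuscular junction), chr2L:898250-898549 (plus, Lsp1beta, a larval storage protein of the fat body), chr2L:885092-885391 (minus, CG15824), chr3L:3654722-3655021 (minus, CG10862) and chr3L:3658818-3659117 (plus, CG43098). The promoter of Ubx, a Hox gene and a textbook Polycomb target, lies at chr3R:16734377-16734676 (minus) and was added after its values were seen. Capitals mark GAGAG, the letters that GAGA factor binds, and GCCAT, the core of the site of Pleiohomeotic, each on either strand (CTCTC and ATGGC), since both proteins are known at Polycomb response elements.
CG11449: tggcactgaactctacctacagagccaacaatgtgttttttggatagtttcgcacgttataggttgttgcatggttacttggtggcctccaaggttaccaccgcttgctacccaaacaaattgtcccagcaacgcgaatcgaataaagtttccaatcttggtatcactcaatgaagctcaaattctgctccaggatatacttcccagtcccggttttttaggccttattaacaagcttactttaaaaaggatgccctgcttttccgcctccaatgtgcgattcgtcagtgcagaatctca
GluRIIC: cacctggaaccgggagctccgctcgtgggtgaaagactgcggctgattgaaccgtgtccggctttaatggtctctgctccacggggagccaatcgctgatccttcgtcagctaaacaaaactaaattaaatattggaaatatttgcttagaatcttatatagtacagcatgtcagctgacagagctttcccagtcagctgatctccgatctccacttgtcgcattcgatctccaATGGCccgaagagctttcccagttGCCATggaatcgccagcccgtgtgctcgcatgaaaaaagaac
Lsp1beta: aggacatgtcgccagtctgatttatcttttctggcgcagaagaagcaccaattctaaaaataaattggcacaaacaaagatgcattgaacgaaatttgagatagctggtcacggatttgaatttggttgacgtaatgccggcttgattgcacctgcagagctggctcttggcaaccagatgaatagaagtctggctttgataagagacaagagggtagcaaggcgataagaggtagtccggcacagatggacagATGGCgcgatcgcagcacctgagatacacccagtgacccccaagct
CG15824: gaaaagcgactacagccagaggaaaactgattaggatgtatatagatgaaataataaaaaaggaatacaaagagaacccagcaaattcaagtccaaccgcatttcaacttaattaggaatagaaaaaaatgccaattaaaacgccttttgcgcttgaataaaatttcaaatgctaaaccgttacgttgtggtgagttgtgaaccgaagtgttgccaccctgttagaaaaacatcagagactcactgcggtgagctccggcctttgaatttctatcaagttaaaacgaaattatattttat
CG10862: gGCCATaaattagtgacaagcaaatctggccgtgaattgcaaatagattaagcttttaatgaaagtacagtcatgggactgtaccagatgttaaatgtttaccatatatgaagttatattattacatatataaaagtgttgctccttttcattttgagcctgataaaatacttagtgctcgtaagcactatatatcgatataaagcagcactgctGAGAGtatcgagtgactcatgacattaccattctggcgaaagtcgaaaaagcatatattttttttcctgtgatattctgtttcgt
CG43098: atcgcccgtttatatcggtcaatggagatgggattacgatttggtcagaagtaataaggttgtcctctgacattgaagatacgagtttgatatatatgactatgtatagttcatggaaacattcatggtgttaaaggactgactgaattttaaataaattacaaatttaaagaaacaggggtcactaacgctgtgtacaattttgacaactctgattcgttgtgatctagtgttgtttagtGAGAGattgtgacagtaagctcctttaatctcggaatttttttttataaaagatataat
Ubx: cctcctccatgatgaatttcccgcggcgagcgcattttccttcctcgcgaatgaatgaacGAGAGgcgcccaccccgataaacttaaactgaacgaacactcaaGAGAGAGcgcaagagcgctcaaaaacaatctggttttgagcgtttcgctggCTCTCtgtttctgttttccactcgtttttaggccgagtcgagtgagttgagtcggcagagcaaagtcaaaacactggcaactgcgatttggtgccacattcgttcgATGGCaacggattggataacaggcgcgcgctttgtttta
The Ubx promoter held 4 matches to GAGAG, 2 of them overlapping, and 1 to GCCAT. GluRIIC held 2 matches to GCCAT, Lsp1beta 1 to GCCAT, CG10862 1 to each and CG43098 1 to GAGAG, and no capitals stand in the sequences of CG11449 and CG15824. Over the 489 protein-coding genes with a start in a member window, 148 promoters (30.3%) held GAGAG and 210 (42.9%) GCCAT. Of all 11669 autosomal promoters of the same length, 30.1% held GAGAG and 40.7% GCCAT, and of the 900 promoters in other H3K27me3 windows, 37.1% and 46.1%. A match to these letters is a description of the sequence and not a binding site.

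H3K27me3 coverage left little room inside the members, and H3R17me2 coverage varied from list to list. The mean H3K27me3 coverage over the 8 lists ranged from 61.9% to 100% with a median of 100%, and 993 members (58.8%) were covered completely in all 8 lists. The mean H3R17me2 coverage ranged from 50.0025% to 88.6% with a median of 56.6%. The SD of a member over its 8 H3R17me2 lists had a median of 29.8 percentage points. The lists that covered at least 50% of a member were most often 5 of 8, in 668 members (39.6%), and all 8 did so in 8 members. In 668 members (39.6%) at least 1 H3R17me2 list showed no peak at all, in 1115 (66.0%) at least 1 list covered the whole window, and in 489 (29.0%) both were seen.

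**Figure D1:**
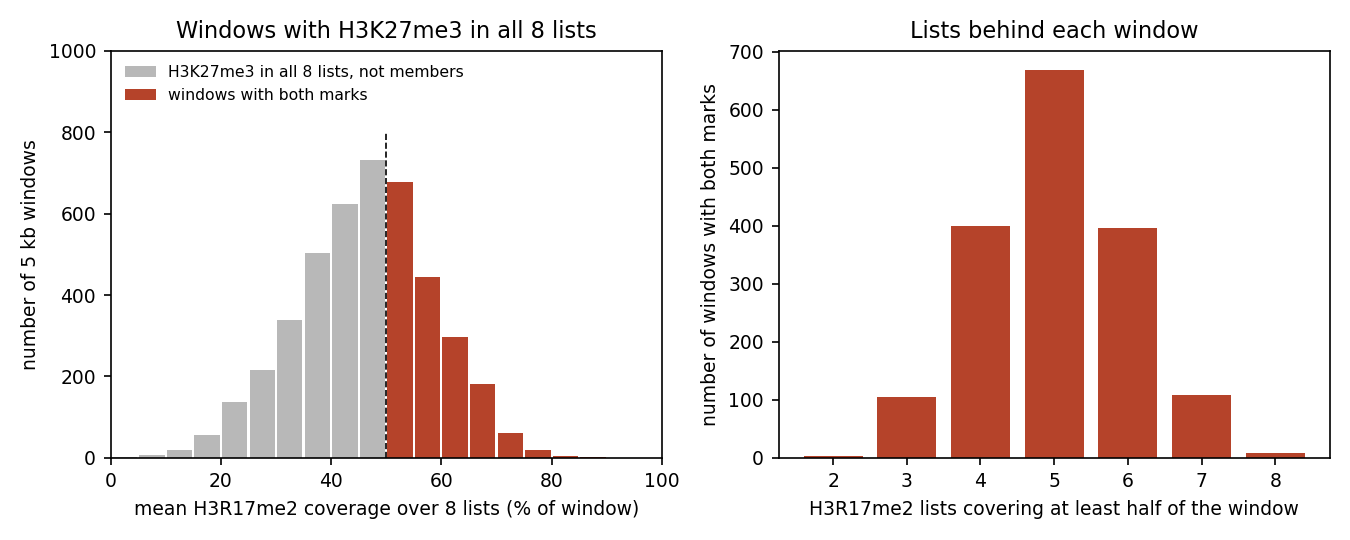
Left, number of 5 kb windows with H3K27me3 over at least 50% in all 8 lists by their mean H3R17me2 coverage in percent, with the members right of the dashed line at 50%. Right, number of members by how many H3R17me2 lists cover at least 50% of the window, with 668 members at 5 lists and 8 members at 8. The line at 50% runs through the middle of a single hump.

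The members are one side of a continuous distribution. Between 50% and 52% mean H3R17me2 coverage there were 282 members, and between 48% and 50% there were 295 H3K27me3 windows just outside. The member nearest the line, on 2R from 11560001 to 11565000, had the lowest of these means, 50.0025%, and the window within CG34354 on 3R just outside it had 49.995%. On the side of H3K27me3, the members within Ddr and CG14837 had 50.1% in their lowest list, and just outside a window on 3R from 17310001 to 17315000 had 49.9%. A further 332 windows met the H3R17me2 part but had at least 50% of their length under H3K27me3 in only 7 of the 8 lists.

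The H3K27me3 part of the rule alone kept 4323 windows (19.8%) and the H3R17me2 part alone kept 4330 (19.9%). Members made up 39.1% of the first and 39.0% of the second. Windows with H3K27me3 in all 8 lists and almost no H3R17me2 were few, with 9 windows (0.208%) under a mean H3R17me2 coverage of 10%, against 2926 (13.4%) of all autosomal windows. Repeats (soft-masked bases) took up 19.8% of all windows and 15.3% of the 4323 H3K27me3 windows on average. Their part in this contrast was not tested.

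A library stood apart before any comparison. The H3R17me2 list of 40-day-old control replicate 1 covered 25.0% of the members on average, while the other 7 lists covered 52.4% to 74.8%. It had no peak in 533 members (31.6%), where the others had none in 3 to 71. Over all windows with H3K27me3 in all 8 lists, its coverage was 11.3 percentage points lower in the quintile with the highest GC content than in the quintile with the lowest, from 27.9% to 16.7%, while in each of the other 7 lists it was 8.77 to 26.9 points higher. Without it the same rule gave 2204 windows, among them 1639 of the 1689 members.

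Members lay on all 4 arms and mostly singly or in short stretches. They made up 9.31% of the windows of 3R (597 of 6415), 8.06% of 2L (379 of 4702), 7.65% of 2R (387 of 5057) and 5.80% of 3L (326 of 5622). As a share of the H3K27me3 windows of the same arm, the values were closer, from 35.4% on 2L to 41.5% on 3R. The 1689 members formed 1078 stretches, of which 713 were a single window, and 976 members (57.8%) had at least 1 member as a direct neighbour.

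The longest stretch of members was 55 kb of 2R, from 24815001 to 24870000, with 11 windows. Distal-less (Dll), the homeobox gene of limb development, spans 37.6% of it, and CG3650 has the single start site in it. Its mean H3R17me2 coverage was 57.7%, from 15.3% in the lowest to 72.8% in the highest list, beside 98.9% for H3K27me3. The next, 45 kb of 3L from 20650001 to 20695000, holds no start site of a protein-coding gene and reaches into knirps (kni), a gap gene of the embryo, at its end. There the mean H3R17me2 coverage was 59.2%, from 22.9% to 84.1% between lists. A further 3 stretches of 35 kb each followed, around GluRIIC and Lsp1beta on 2L, CG11449 on 3L and CG13579 on 2R. Stretches of 30 kb covered dar1 with CG10862 and CG43098 on 3L, GATAe, a GATA factor of the endoderm, and the dynein heavy chain gene Dhc98D on 3R, and 10 start sites inside the span of the POU factor gene pdm3 on 2R, and another on 2L from 18890001 to 18920000 had no start site.

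The H3R17me2 lists disagreed at the start sites of the longest stretches as they did elsewhere. The body of Lsp1beta was covered over 11.4% and 64.4% in control lists and 50.2% and 54.1% in mutant lists at 3 days, and 0% and 94.8% in control lists and 100% in both mutant lists at 40 days. Both 40-day-old mutant lists were therefore above all others at this gene. The body of GluRIIC was covered over 0% and 100% in control lists and 53.3% and 66.0% in mutant lists at 3 days, and 0% and 69.4% in control lists and 55.5% and 100% in mutant lists at 40 days. Its 4 conditions overlapped. The body of CG11449 was covered over at least 70.9% in 7 of the lists and over 0% in 40-day-old control replicate 1. Dll itself ranged from 16.7% in that library to 80.95% in 40-day-old mutant replicate 2.

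Around a member, coverage of both marks declined with distance and was still above that of the windows that are not members at 100 kb. At 5 kb to either side the H3K27me3 coverage was 87.6% and 88.1%, at 100 kb it was still 47.1% and 47.5%, and over all windows that are not members it was 27.7%. H3R17me2 coverage was 58.2% in the members, 46.4% and 46.2% at 5 kb, and 38.8% at 100 kb on both sides, against 31.8% over all windows that are not members. Neighbours at 5 kb that were not members themselves had 39.3% and 39.4% H3R17me2 coverage and 81.7% and 82.6% H3K27me3 coverage. The step between the member and its neighbours comes from the rule.

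**Figure D2:**
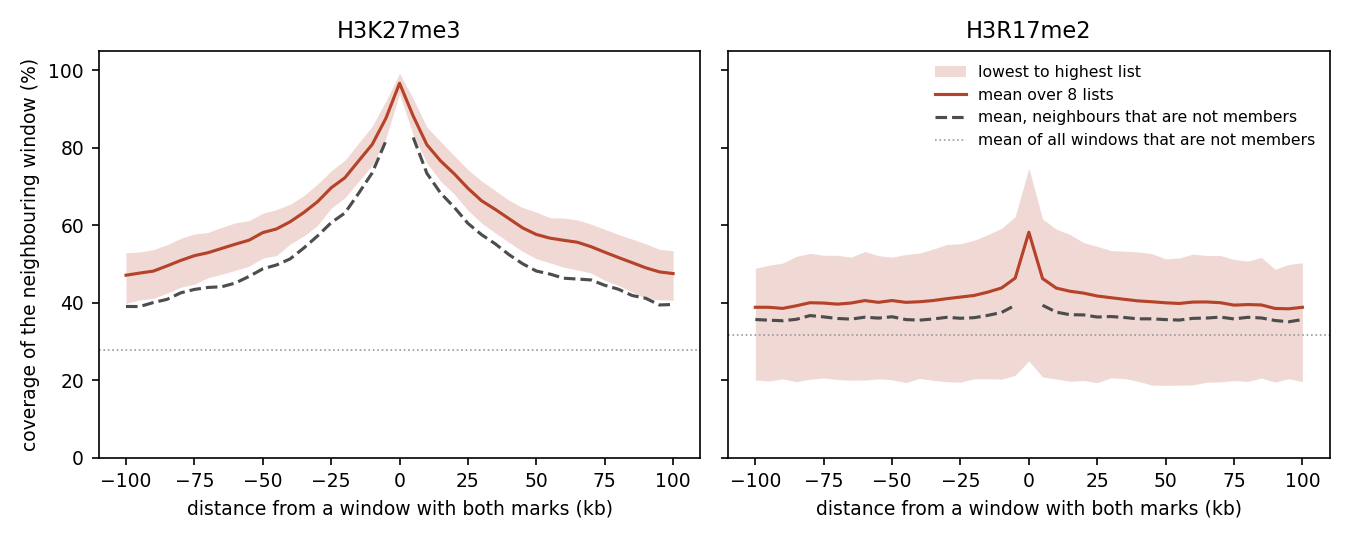
Mean coverage in percent (y axis) of windows at a distance in kb (x axis) from a member, for H3K27me3 (left) and H3R17me2 (right). Shading spans the lowest to the highest of 8 lists, dashed lines leave out neighbours that are members, and dotted lines give all windows that are not members. H3K27me3 declines over the whole 100 kb, and H3R17me2 drops from 58.2% to about 46% within 5 kb.

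Members lay in H3K27me3 stretches of every length. Of the 1689 members, 1030 lay inside a run of 5 or more H3K27me3 windows, 178 at the edge of such a run, 311 in runs of 2 to 4 and 170 alone. The share of windows that were members was 39.9% inside long runs, 33.7% at their edges and 45.9% for single windows, against 39.1% over all H3K27me3 windows. H3R17me2 coverage was 46.3% inside long runs and 44.6% at the edges, a difference above 0 in 5 of the 8 lists and within their spread. The H3K27me3 peaks at members had a median length of 11251 to 29282 bp per list and the H3R17me2 peaks 1658 to 4666 bp.

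Members held fewer genes than an average window. A start of a protein-coding gene lay in 21.5% of the members (363 windows), in 26.2% of the other H3K27me3 windows and in 32.5% of all autosomal windows. Exons took up 17.8% of the length of the members and 26.5% of all windows, and intergenic DNA 45.5% and 31.7%. The windows with H3R17me2 over at least 50% and under 10% H3K27me3 differed most from them, with 52.6% exons and 6.26% intergenic DNA. The median GC content was 43.9% in members, 42.3% in the other H3K27me3 windows and 42.0% in all windows. The share of H3K27me3 windows that were members was 19.7% in the quintile with the lowest GC content and 60.2% in the quintile with the highest. In each quintile of GC content the H3R17me2 coverage was higher in H3K27me3 windows than in the other windows, from 39.5% against 24.7% in the lowest quintile to 52.4% against 36.2% in the highest. How far GC content and repeats take part in the peak calls was not tested.

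At start sites inside members both marks went on through the promoter. H3R17me2 covered 56.8% of the 489 start sites and 53.2% of the positions 2000 to 3000 bp away, a difference of 3.57 percentage points that was above 0 in all 8 lists, from 1.11 to 6.17. The 900 start sites in other H3K27me3 windows had 35.0% and 39.3%, with the start site lower in 7 of the 8 lists, and all other start sites 23.3% and 33.9%, lower in 7 lists as well. Since the window around the start site was chosen by its coverage and the flanks often lie outside it, no test was made. H3K27me3 covered 93.8% of the start sites in members and 92.0% of their flanks.

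Of the 11669 protein-coding genes of the 4 arms, 489 (4.19%) had their start in a member, and these were 35.2% of the 1389 genes with a start in any H3K27me3 window. Homeotic and developmental transcription factors are known Polycomb targets. The gene lists were drawn up with earlier results of these data known, so their shares are a description and no check of the windows. Of 95 such genes, 89 (93.7%) started in an H3K27me3 window and 21 (22.1%) in a member, which is 23.6% of the 89. By contrast none of the 68 cytosolic ribosomal protein genes started in an H3K27me3 window, and none of 9 clock genes. Of 6 autosomal genes that mark cells of the head, H3K27me3 covered 0% of the rhodopsin gene ninaE and of nSyb, 1.498% of Syt1 and 16.5% of brp, all 3 of neurons, 34.4% of the photoreceptor channel gene trp and 79.3% of the glial gene repo, on average over 8 lists.

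The 21 transcription factor genes spanned early patterning and later cell fate. Among them were the Hox genes Ubx and lab, the pair-rule genes ftz and eve, zen of dorsoventral patterning, the Pax genes Poxm, Poxn, gsb and gsb-n, the NK homeobox genes bap, slou and C15, the T-box genes Doc1 and Doc3, gcm, the switch to glial fate, and ato, the proneural gene of photoreceptors. Over eve, H3R17me2 covered 100% in 6 lists, 59.6% in 3-day-old mutant replicate 2 and 0% in 40-day-old control replicate 1. Over bap it covered 70% to 100% in 7 lists and 0% in that same library. Poxn was the gene of this group with the highest lowest list, from 41.3% in 40-day-old control replicate 1 to 77.3% in 40-day-old mutant replicate 2. The body of Ubx, of which 76.4% lies in members, was covered over 47.0% and 68.9% in control lists and 38.5% and 49.6% in mutant lists at 3 days, and 16.4% and 51.8% in control lists and 54.8% and 87.8% in mutant lists at 40 days. Both 40-day-old mutant lists were above both 40-day-old control lists at Ubx, and replicate 2 was above replicate 1 in each condition. The body of sna, a repressor in the mesoderm, had 0% in both control lists and 80.7% and 0% in mutant lists at 3 days, and 92.6% and 84.4% in control lists and 100% and 61.6% in mutant lists at 40 days. All 4 lists of 40-day-old flies had a peak there and 1 of the 4 lists of 3-day-old flies.

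Genes of signalling and sensory lists also started in members, and their shares, like that of the transcription factors, are read beside the 35.2% of all genes in H3K27me3 windows. Among 17 ligands of development, hh, Ser and wntD started in members, with H3R17me2 coverage of 54.6%, 56.5% and 61.2% of their bodies on average, and these were 37.5% of the 8 in H3K27me3 windows. Of 40 neuropeptide genes only Mip, the gene of myoinhibitory peptides, did, with 64.7%, and of 48 dpr, DIP, beat and side genes of neuronal surface proteins only beat-Ia did, although 19 of those 48 started in an H3K27me3 window. Of 52 odorant receptor genes 7 started in members (Or22c, Or43a, Or45a, Or59b, Or59c, Or85a and Or98a), and of 49 ionotropic receptor genes 6 (Ir48c, Ir60a, Ir92a, Ir94f, Ir94g and Ir94h). These were 41.2% of the odorant receptor genes and 60.0% of the ionotropic receptor genes in H3K27me3 windows, and no test compares the lists. None of 54 gustatory receptor genes, 45 odorant binding protein genes and 8 nicotinic receptor genes did. Cyp313a5 and Cyp6a16 of 70 cytochrome P450 genes and Jon65Aiv of 16 Jonah protease genes completed the lists.

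Some gene families entered as clusters. Of 102 cuticle protein genes 17 started in H3K27me3 windows and 12 of these in members (70.6%), and 11 of the 12 were Tweedle genes of a single cluster on 3R between 26620608 and 26693590. Over TwdlO, in this cluster, H3R17me2 covered 100% in 6 lists, 72.2% in 3-day-old mutant replicate 1 and 0% in 40-day-old control replicate 1. Of 25 Osiris genes, which are clustered too, 9 started in H3K27me3 windows and 7 of these in members (77.8%). Osi11 had H3R17me2 over 34.8% to 100% of its body in 7 lists and over 0% in 40-day-old control replicate 1. Genes of a cluster share windows and are not independent of each other, so these shares are no test of a family.

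Few windows kept H3R17me2 over 50% of their length in every list. The member with the highest lowest list was on 2L from 15515001 to 15520000, where the H3R17me2 coverage was 64.5% and 74.5% in control lists and 75.6% and 76.9% in mutant lists at 3 days, and 66.0% and 71.1% in control lists and 80.8% and 100% in mutant lists at 40 days. It overlaps no protein-coding gene. The window on 2R from 9760001 to 9765000 lies within trpl, the gene of a light-activated channel of photoreceptors, and had the highest mean of all members at 88.6%, with 100% in 5 lists and 64.4% in the lowest, 40-day-old mutant replicate 2. Its H3K27me3 coverage was 94.5% on average and 71.96% in the lowest list. The other 6 lay within tun, where Poxn is also placed, nAChRalpha6, a subunit of the nicotinic acetylcholine receptor, Tmtc2, mbl, a splicing regulator of muscle and eye, and Stacl, and in a stretch of 2R without a gene. Their lowest lists had 50.5% to 55.1%.

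Windows chosen with 1 replicate were also read in the other, which the choice had not used. With the 4 lists per mark of replicate 1, 1012 windows passed the rule. In the H3R17me2 lists of replicate 2 their coverage was 58.9%, against 52.4% in the other windows that passed the H3K27me3 part in replicate 1 and 39.3% in all windows. With replicate 2, 2966 windows passed, and their coverage in replicate 1 was 40.5%, against 34.8% and 28.3%. In 40-day-old control replicate 1 alone the order was the opposite, with 20.3% in the chosen windows and 24.5% in the others with H3K27me3. The rule was met in both replicates by 645 windows.

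Members were covered by H3K27me3 over 93.9% to 99.2% and by H3R17me2 over 25.0% to 74.8% on average per list, and the other autosomal windows over 19.7% to 34.6% and 18.4% to 40.4%. For H3R17me2 the values were 56.0% and 70.9% in control lists and 52.4% and 59.0% in mutant lists at 3 days, and 25.0% and 64.6% in control lists and 62.9% and 74.8% in mutant lists at 40 days. Replicate 2 was above replicate 1 in all 4 conditions, by 6.65 to 39.6 percentage points. For H3K27me3 the values were 95.5% and 96.9%, 93.9% and 94.4%, 97.8% and 97.0%, and 98.2% and 99.2% in the same order, so that every list of 40-day-old flies was above every list of 3-day-old flies.

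**Figure D3:**
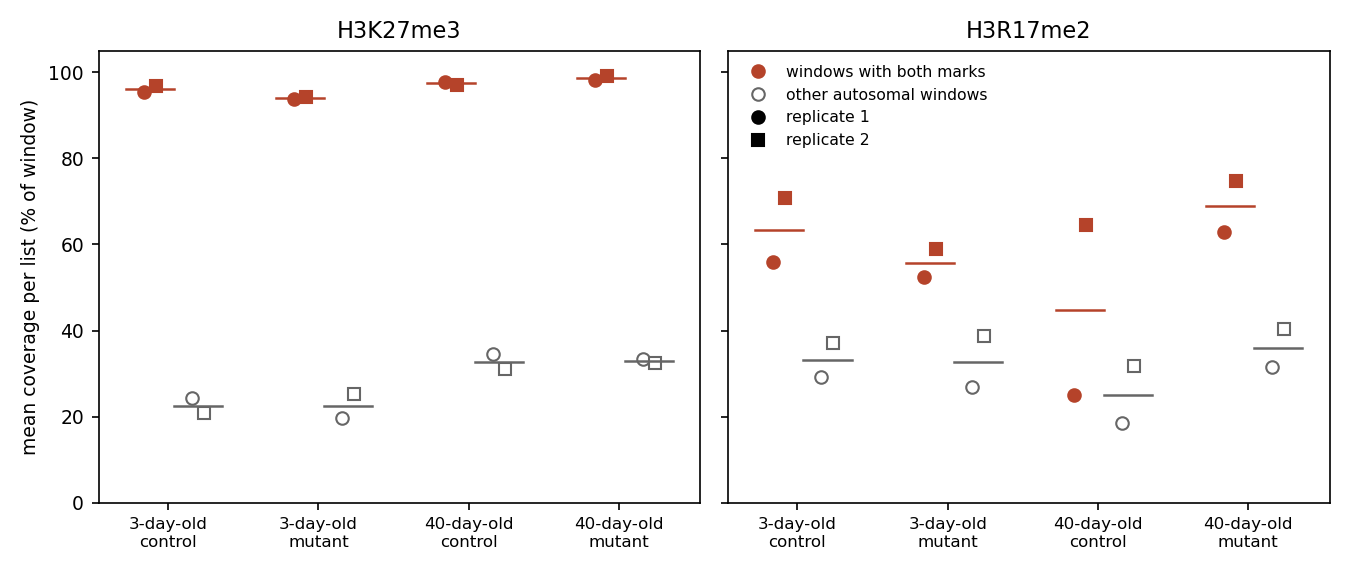
Mean coverage in percent of the members (filled) and of the other autosomal windows (open) in each list of H3K27me3 (left) and H3R17me2 (right), by condition. Circles are replicate 1, squares replicate 2 and bars the mean of 2 replicates. The H3R17me2 list of 40-day-old control replicate 1 lies at 25.0%, below the other 7.

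None of 12 contrasts of age and genotype over the members passed after adjustment. They were tested by exact two-sided permutation of 4 lists against 4, which cannot give a p below 0.0286, with Benjamini-Hochberg adjustment over the 12. A contrast at this lowest p could pass only if many of the 12 were at it together. Not passing therefore does not show that a difference is absent. H3K27me3 coverage of the members was 95.2% ± 1.34 at 3 days and 98.1% ± 0.918 at 40 days (SD, n = 4 lists each, exact permutation p = 0.0286, adjusted p = 0.171), a difference of 2.89 percentage points without overlap of the groups. The choice of members was not neutral to this contrast, as stated at the start. With 58.8% of the members at 100% in all 8 lists by choice, their H3K27me3 coverage had little room to be higher at either age. The excess over the other windows of the same list, 72.65 percentage points at 3 days and 65.1 at 40 days, a difference of -7.52, is bounded in the same way, and nothing is read from its sign or its test. The other windows were covered over 19.7% to 25.2% in the lists of 3-day-old flies and 31.0% to 34.6% in those of 40-day-old flies. Between genotypes the difference of H3K27me3 in the members was -0.385 points (exact permutation p = 0.829, adjusted p = 0.971).

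None of the H3R17me2 contrasts had groups without overlap. Coverage was 59.6% ± 7.997 at 3 days and 56.8% ± 21.8 at 40 days (SD, n = 4 lists each, exact permutation p = 0.914, adjusted p = 0.971). It was 54.1% ± 20.3 in controls and 62.3% ± 9.39 in mutants (SD, n = 4 each, exact permutation p = 0.6, adjusted p = 0.971). Without 40-day-old control replicate 1 the difference with age was 7.85 points in place of -2.76, and that between genotypes -1.57 in place of 8.14. The lists of 3-day-old controls and 40-day-old mutants together had 66.1% and the other 4 lists 50.3%, an interaction of 15.9 points (exact permutation p = 0.143, adjusted p = 0.429).

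Within single ages and genotypes, 2 lists stood against 2, too few for an exact permutation test to pass, and the values are given as a description. H3R17me2 coverage of the members was 24.01 points higher in 40-day-old mutants than in 40-day-old controls, at 37.9 points in replicate 1 and 10.1 in replicate 2, and the lists overlapped. In the other windows this difference was 10.9 points, and the excess differed by 24.8 points in replicate 1 and 1.39 in replicate 2. Coverage of the members was 13.1 points higher in 40-day-old than in 3-day-old mutants, without overlap, at 10.5 and 15.7 points in replicates 1 and 2. In the other windows that last difference was 3.21 points. Between 3-day-old mutants and controls the members differed by -7.73 points and the other windows by -0.506. With age in controls the members differed by -18.6 points and the other windows by -8.19. The lists of the members overlapped in both. H3K27me3 coverage of the members was 2.08 points lower in 3-day-old mutants than in 3-day-old controls and 1.31 points higher in 40-day-old mutants than in 40-day-old controls, both without overlap, and the interaction was 1.69 points (exact permutation p = 0.229, adjusted p = 0.549). In the other windows the 2 differences between genotypes were -0.124 and 0.235 points, both with overlap.

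The fold enrichment of the peaks was not part of the rule. H3R17me2 peaks at the members were weak in every list, with a median fold enrichment over input of 1.29 to 1.55, and none had a q-value under 0.05. H3K27me3 peaks at the members had a median of 1.48 to 1.69, and 42.4% to 97.9% of them had a q-value under 0.05. The highest single peak at a member was in 3-day-old control replicate 2 for both marks, at a fold enrichment of 6.63 for H3K27me3 and 1.91 for H3R17me2. No window passed the rule when only peaks with a q-value under 0.05 were kept, and 1350 members had such H3K27me3 peaks over at least 50% of their length in 4 or more lists.

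The height of the H3K27me3 peaks was compared between members and H3K27me3 windows with little H3R17me2, which the H3R17me2 lists alone told apart. The mean fold enrichment was 2.05 ± 0.292 in members and 2.49 ± 0.439 in the 9 windows with under 10% H3R17me2 coverage (SD over 8 lists). The difference of -0.441 was below 0 in 8 of 8 lists (p = 0.0078 by an exact permutation of signs, two-sided, which is the smallest p possible, and adjusted p = 0.0156 over 2 tests). Against the 223 windows under 25% the difference was -0.145, below 0 in 8 of 8 lists (same exact test, p = 0.0078). Against all 2634 other H3K27me3 windows it was -0.0057, below 0 in 6 of 8 lists (same exact test, p = 0.242). Within quintiles of GC content, the difference from the windows under 25% ranged from -0.021 to -0.340. It was below 0 in 8 lists in each quintile except the second, where it was so in 6. All 8 lists compare the same 9 windows, so the p-value measures the spread between lists and not between windows. The 9 windows had a median GC content of 39.9%, against 43.9% in members. Soft-masked bases took up 28.4% of them and 13.8% of the members on average. Which input served which mark is not stated.

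The height of the H3R17me2 peaks was 1.414 ± 0.0766 in members and 1.399 ± 0.0704 in the 755 windows with H3R17me2 and under 10% H3K27me3 coverage (SD over 8 lists). The difference of 0.0145 was above 0 in 7 of 8 lists (p = 0.0156 by the same exact test, with adjusted p = 0.0156), where the height itself was 1.414. Against all 2641 other windows with H3R17me2 it was 0.0068, above 0 in 6 of 8 lists, and did not pass (same exact test, p = 0.0313, adjusted p = 0.0625). With -log10 p in place of the fold enrichment it was 0.0035 (same exact test, p = 0.781).

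**Figure D4:**
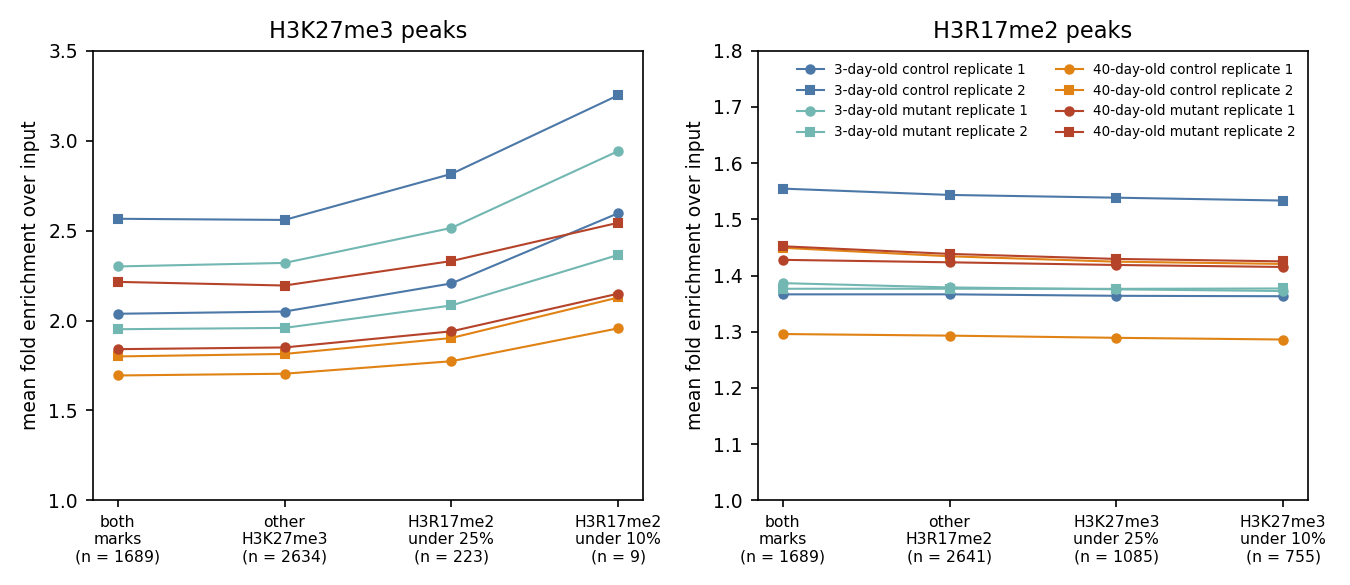
Mean fold enrichment over input (y axis) of H3K27me3 peaks (left) and H3R17me2 peaks (right) in 4 classes of windows, with n the number of windows and a line for each list. H3K27me3 lines are higher in windows with under 10% H3R17me2 than in members in all 8 lists, and H3R17me2 lines are nearly flat. The y axes start at 1 and differ in range.

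Single members were compared between conditions by H3R17me2 coverage. A window was counted when both lists of a condition were above both of the other and the means differed by at least 50 percentage points. In 40-day-old mutants 225 members (13.3%) were higher than in 40-day-old controls and 6 (0.355%) lower, against 6.04% and 0.537% of all autosomal windows. In 3-day-old mutants 21 (1.24%) were higher than in 3-day-old controls and 91 (5.39%) lower, against 1.5% and 2.63%. In 40-day-old controls 7 (0.414%) were higher than in 3-day-old controls and 191 (11.3%) lower, against 0.665% and 5.15%. In 40-day-old mutants 140 (8.29%) were higher than in 3-day-old mutants and 12 (0.710%) lower, against 3.55% and 1.41%. In all, 494 members (29.2%) were counted in at least 1 comparison, against 16.5% of all autosomal windows.

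Windows with H3R17me2 over at least 50% on average that were not members are the nearer comparison, since coverage near 0 cannot drop by 50 points. Among these 2641 windows the higher and lower shares were 11.9% and 0.606% for 40-day-old mutants against controls, 1.74% and 4.70% for 3-day-old mutants against controls, 0.909% and 10.6% with age in controls, and 5.76% and 1.44% with age in mutants. The members' share was furthest above that of these windows with age in mutants, at 8.29%. Without 40-day-old control replicate 1, the members higher in 40-day-old mutants were 109 (6.45%, against 4.70% of all windows), and those lower in 40-day-old than in 3-day-old controls 83 (4.91%, against 3.84%). The shares of the H3R17me2 windows that are not members were not computed without that library.

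**Figure D5:**
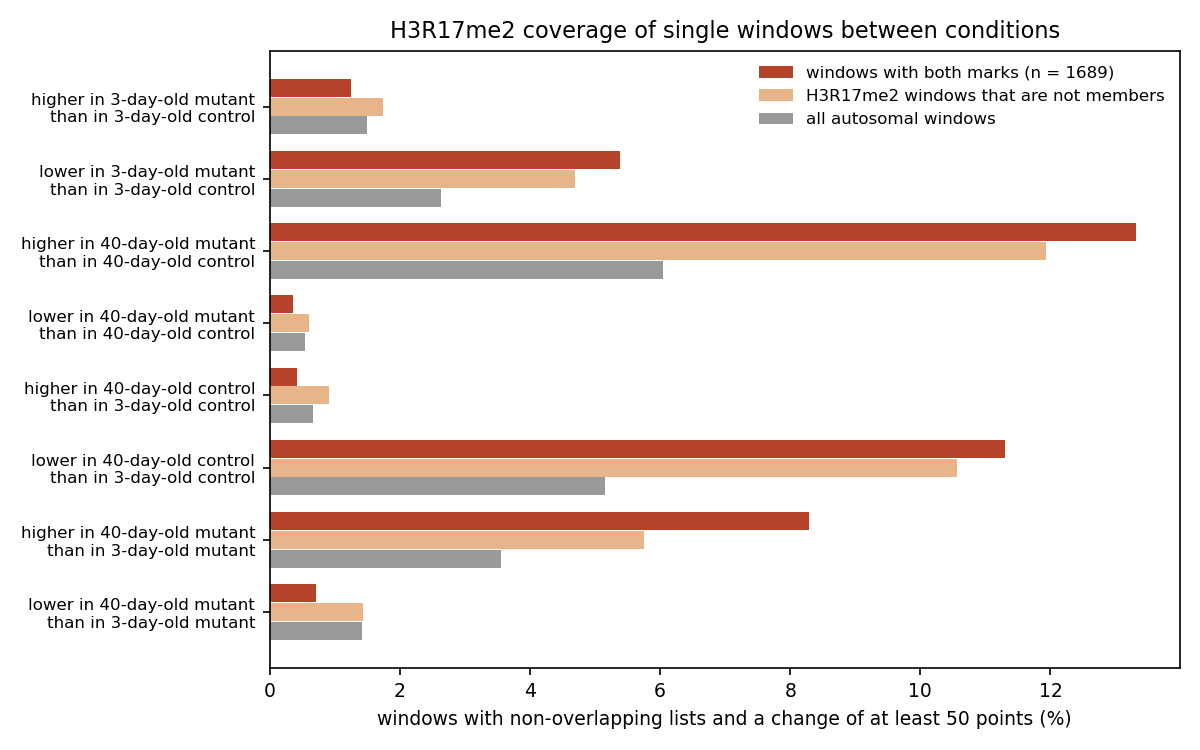
Share in percent (x axis) of the 1689 members, of H3R17me2 windows that are not members and of all autosomal windows with non-overlapping lists and a difference in H3R17me2 coverage of at least 50 percentage points, for 8 comparisons of 2 lists against 2. The longest bars are those of 40-day-old mutants above 40-day-old controls, at 13.3%, 11.9% and 6.04%.

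The members with the largest differences show what lay behind these counts. The window within Dhc98D on 3R from 28495001 to 28500000 was covered by H3R17me2 over 89.7% and 100% in control lists and 11.8% and 73.1% in mutant lists at 3 days, and 0% and 14.1% in control lists and 100% in both mutant lists at 40 days. It had the largest difference of all members between 40-day-old mutants and controls, 92.9 points, and lay 87.8 points lower in 40-day-old than in 3-day-old controls. The window within CG3339 on 3R from 27305001 to 27310000 was covered over 100% and 83.9% in control lists and 2.48% and 0% in mutant lists at 3 days, and 0% and 68.5% in control lists and 91.4% and 78.6% in mutant lists at 40 days. The 3-day-old mutants were below every other condition except 40-day-old control replicate 1, which lay at 0% as well. The window within GABA-B-R3, the gene of a GABA receptor subunit, was covered completely in both 3-day-old controls and over 7.62% and 25.4% in 3-day-old mutants.

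Differences in the opposite directions were rarer. The window within sli, the gene of the guidance cue Slit, on 2R from 15885001 to 15890000, had 0% and 18.1% in 3-day-old controls and 100% and 98.2% in 40-day-old controls. The window within the Iroquois gene mirr had 13.6% and 37.2% in 3-day-old controls and 80.8% and 100% in 40-day-old controls. A window within the Hox gene Antp had 93.8% and 100% in 3-day-old mutants and 0% and 46.8% in 40-day-old mutants, and windows within SKIP and dve were higher in 3-day-old mutants than in 3-day-old controls by 74.2 and 71.3 points. H3K27me3 covered at least 50% of each of these windows in all 8 of its lists, as the rule asks.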

How the data were processed

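H3R17me2 and H3K27me3 ChIP-seq of fly heads gave 16 lists of broad peaks, 1 per immunoprecipitated library. Per the labels and the methods, the authors trimmed reads with Trim Galore 0.6.0, aligned them to dm6 with Bowtie2 2.5.1, removed duplicates with Picard, used SAMtools 1.19 and called broad peaks against input with MACS2 2.2.7.1 at p 0.01 and a minimum length of 500 bp. The deposited fold enrichment is a ratio of immunoprecipitated to input signal, and the deposited -log10 p and -log10 q values come from the same calls. The lists hold no counts, so the depth of each library is unknown and no interval was computed. The 8 inputs were not analysed here beyond their part in the peaks.

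Lists were assigned to samples by the names of their peaks, which match the sample descriptions. Coverage was the share of a window under merged peaks, and height the fold enrichment weighted by covered bases. Arm lengths and sequence came from RefSeq Release 6, with arm lengths equal to those of dm6, and genes from Ensembl release 115. Chromosome X was not analysed here. Lists were compared by exact two-sided permutation or sign-flip tests (NumPy 2.4.6, pandas 2.3.3, Python 3.11.15) that were tested on simulated data. The methods call the replicates biological, but nothing says that they came from separate fly cultures, so p-values measure only the spread between these samples. Whether replicate numbers mark a shared batch is not stated. Deviations of same-numbered lists correlated at -0.095 to 0.115 across windows. A block was to be used only where every pair reached 0.1. Not every pair did, so no block was used. Mean H3R17me2 coverage of the members was nevertheless higher in replicate 2 in all 4 conditions. The members and gene lists were chosen with earlier results of these data known. Genes were named by a rule of the longest stretches, the highest lowest lists, the gene lists, the largest changes and the windows next to the thresholds. Alternatives varied window length, threshold, peak sets, replicates and height measure.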

Additional observations from a re-analysis of the deposited data

Results flagged for a closer look

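In the H3R17me2 list of 40-day-old control replicate 1 the members were covered over 24.998%, and 1262 peaks touched them. Both values lay far below the other 7 lists of the mark, at 52.4% to 74.8% and 1689 to 2046 peaks. Of 7 sets of 8 lists looked at, these 2 held a list this far from the rest, and chance gives about 1 set in 20. Both values come from the peaks of the same library, so the 2 sets do not count separately against that rate. The same library had the smallest length under H3R17me2 peaks on the autosomes, 20.6 Mb, where the others had 31.4 to 47.0 Mb. Its part in the contrasts is given with the values without it.

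H3K27me3 coverage of the members differed between mutant and control in opposite directions at the 2 ages, by -2.08 percentage points at 3 days and 1.31 points at 40 days, with no overlap between the lists in either case. The interaction did not pass (exact permutation p = 0.229, adjusted p = 0.549 over 12 contrasts).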

How the results depend on the processing

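The length of the members, 8.445 Mb, was 26.89 Mb with a threshold of 25% in place of 50% for both marks, 0.08 Mb with 75%, 0.04 Mb when all 8 H3R17me2 lists had to cover 50%, 0 Mb with peaks under q 0.05 and 4.22 Mb with as many top peaks per list as the shortest list of each mark, and it ranged from 7.015 to 11.02 Mb when 1 library was left out. With equal numbers of top peaks the H3R17me2 age difference was 0.473 points in the members and 0.605 for the excess (exact permutation p = 0.971 for both), the reverse of -2.76 and -0.270. Leaving out 1 library in turn gave, for H3K27me3 in the members, 2.47 to 3.47 points (age), -1.31 to 0.458 (genotype) and 1.07 to 2.38 (interaction), and for its excess -8.67 to -6.36, -2.40 to 1.90 and -0.649 to 3.52. For H3R17me2 it gave -8.74 to 7.85, -1.57 to 13.7 and 7.45 to 20.7 in the members, and -2.94 to 6.31, -3.19 to 5.84 and 5.24 to 14.03 for the excess. The height difference ranged from -0.467 to -0.406 for H3K27me3 and from 0.0125 to 0.0167 for H3R17me2. It was 0.0035 with -log10 p (H3R17me2, p = 0.781, exact) and -0.0057 against all other H3K27me3 windows (p = 0.242, exact). With the replicate block, of 36 assignments, the exact p was 0.0556 for the H3K27me3 age difference of 2.89 points and for the H3R17me2 interaction of 15.9 points. This is the smallest p that the block allows, so no contrast could pass with it. The alternatives for single windows and the comparison with all other windows were chosen after seeing the data. With equal top peaks, 56 members (3.32%, against 2.18% of all windows) were higher and 186 (11.01%, 4.73%) lower in 3-day-old mutants than controls, 19 (1.12%, 1.06%) lower in 40-day-old mutants than controls, 30 (1.78%, 1.496%) higher with age in controls, and 253 (14.98%, 6.23%) higher and 51 (3.02%, 2.04%) lower with age in mutants. Leaving out 1 library, which sets 1 list against 2, gave 33 to 144 and 124 to 209 (3 days, mutant higher and lower), 109 to 798 and 8 to 44 (40 days), 8 to 86 and 83 to 693 (age in controls, higher and lower), and 150 to 291 and 31 to 69 (age in mutants). The share of members stayed above that of all windows in each of these settings for members lower in 3-day-old mutants, higher in 40-day-old mutants, lower with age in controls and higher with age in mutants. In the other 4 directions it was below that of all windows with all libraries and above it with equal top peaks, and the order varied between libraries left out: for members higher in 3-day-old mutants it was 4.68% against 7.28% without mutant replicate 1 and 8.53% against 4.76% without control replicate 2. The nearer comparison, with H3R17me2 windows that are not members, was made only with all libraries and the full lists. There the members had 5.39% against 4.70% lower in 3-day-old mutants and 13.3% against 11.9% higher in 40-day-old mutants. With age they had 11.3% against 10.6% lower in controls and 8.29% against 5.76% higher in mutants. A share above that of all windows is therefore not read as particular to the members. The causes were not tested, and the lists give no depth.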
